A study of Mus musculus with 48 samples.

Results

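Hydralazine given without angiotensin II was compared with vehicle in the brain hemisphere. The comparison used 12 of the 48 libraries of the series and, of 54532 genes in the expression table, the 15820 genes that reached 0.5 FPKM in 6 or more of these 12 libraries. FPKM are fragments per kilobase of gene per 1000000 reads. All libraries came from wild-type male C57Bl6 mice; no age is given in the sources used here. The tested mice had saline from an osmotic minipump and hydralazine (50 mg per kg) in the drinking water, and the mice they were set against had the saline infusion without hydralazine, with 6 libraries in each group. The brain was collected after 2 weeks of infusion; the labels do not give the length of the hydralazine treatment. The groups are called hydralazine and vehicle here. Both carried a pump, so the pump itself is shared. The design contains the same pair under an angiotensin II infusion (0.7 mg per kg per day), and each of these 4 treatments also in the hippocampus. The comparison asks what the blood pressure drug does to brain gene expression when blood pressure is not raised by angiotensin II.

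Hydralazine is a direct vasodilator that relaxes the smooth muscle of arterioles. In other systems it has also been described as an inhibitor of the oxygen-sensing hydroxylases that mark the hypoxia-inducible factors (HIF) for destruction, as a weak inhibitor of DNA methylation, as an inhibitor of amine oxidases and as a trap for reactive aldehydes. A fall in arterial pressure is met by sympathetic activation and renin release through the baroreflex. The gene lists used below follow these known targets, the vessel wall, the cell types of the brain, and the immediate early genes, which neurons and vascular cells switch on within minutes of stimulation.

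Reads in genes ranged from 16.3 to 21.3 M in the hydralazine libraries and from 15.8 to 20.7 M in the vehicle libraries (M stands for 1000000). None of the 5 library measures examined, which were reads in genes, genes above 0, and the shares of reads in mitochondrial genes, in the 100 most abundant genes and in protein-coding genes, differed between the groups (2-sided exact permutation p from 0.403 to 0.619, each with an adjusted p of 0.619; the smallest p that 6 against 6 can give is 0.00216). Replicate 1 stood apart in both groups. Genes above 0 numbered 23682 in hydralazine replicate 1, against 24630 or more in the other hydralazine libraries, and 23693 in vehicle replicate 1, against 24506 or more in the other vehicle libraries. Mitochondrial genes took 6.53% of the reads of hydralazine replicate 1 and 7.22% of those of vehicle replicate 1. Leaving out replicate 1 of both groups was added as a setting after the data were seen. Markers of brain cells were high in every library, which does not tell the hemisphere from the hippocampus: the mean log2 level of 14 neuronal markers lay between 6.67 and 6.80 in hydralazine libraries and between 6.68 and 6.82 in vehicle libraries, and the 12 oligodendrocyte markers lay between 5.88 and 6.06 and between 5.94 and 6.12 in these groups. Nothing in the labels tells whether each replicate is a mouse of its own, and a p-value here therefore reflects only how these libraries vary, which may be technical.

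No gene passed an adjusted p of 0.05 in the comparison of hydralazine with vehicle (limma; 0% of 15820 genes). The lowest adjusted p was 0.277. Some alternative settings called 1 gene: Gm23084 passed with the replicate number as a block and without vehicle replicate 5, and the ribosomal protein pseudogene Rpl21-ps10 passed without vehicle replicate 1 and without replicate 1 of both groups. Before adjustment 361 genes (2.28%) had a p under 0.05, and of these 171 (1.08%) had higher and 190 (1.2%) lower values in hydralazine libraries. This count was 675 without hydralazine replicate 1, 594 without vehicle replicate 1, 746 without both, 859 with library weights and 894 with the replicate block, against 791 expected with no difference. The count thus lay below or above the expected one according to the setting. The median log2 fold change over all genes was 0.001, with 50.7% of genes at higher and 49.3% at lower values under hydralazine. All genes named below from this comparison had an adjusted p that rounds to 1, except where another value is given, so their p-values are printed unadjusted. The 95% intervals show how large a change could have been missed: for 92.6% of genes the interval lay inside a 1.5-fold change in either direction and for 97.5% inside a 2-fold change. The limit depended on level. Of the 5133 genes that averaged 5 to 20 FPKM, 98.0% had an interval inside 1.5-fold, against 77.9% of the 2210 genes under 1 FPKM. For these low genes a 1.5-fold limit on the test scale stands for a larger fold change in FPKM. The median interval reached 0.18 to either side on the log2 scale.

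**Figure D1:**
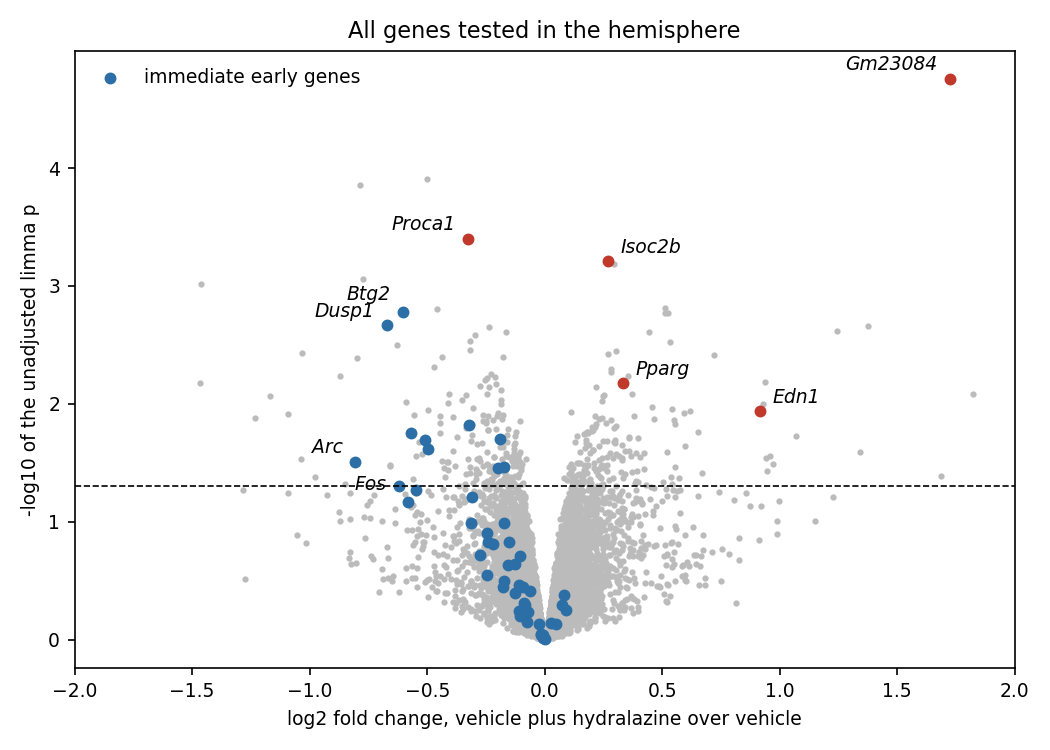
Each point is 1 of the 15820 genes tested, with its log2 fold change (hydralazine over vehicle) across and the negative log10 of its unadjusted limma p upward; the dashed line marks an unadjusted p of 0.05. Blue points are the 48 immediate early genes, 42 of which lie left of 0, and red points are 5 other genes named in the text; none of the points passed an adjusted p of 0.05.

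Of the 45 gene lists, the medians farthest below 0 were those of the immediate early feedback inhibitors (-0.17) and transcription factors (-0.15). Of 48 tested in 3 lists (transcription factors, effectors and feedback inhibitors), 42 had lower and 6 higher values in hydralazine libraries, and the median log2 fold change was -0.15, against 0.001 over all genes. None passed over all genes tested, where 0% did. Before adjustment 11 of the 48 (22.9%) had a p under 0.05, all with lower values, against 2.28% of all genes. In none of the 48 were the groups free of overlap, which 0.126% of all genes were. These genes share their libraries and move together from library to library, so they are not 48 separate observations.

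The promoters of Dusp1, Btg2 and Fos are shown with matches to cAMP response elements (CREs), the sites of the factor CREB. Such sites are a known route of neuronal stimulation to immediate early genes. The genes shown do not stand for the lists: Arc, whose log2 fold change of -0.81 was the lowest of the 48, is not shown. The 250 bases before the RefSeq start (GRCm38.p6, given 5′ to 3′ on the strand of the gene) are printed, with capitals for the full palindrome TGACGTCA in Dusp1 (chr17:26508473-26508722, minus strand) and Btg2 (chr1:134079156-134079405, minus strand), and for the shorter TGACG in Fos (chr12:85473640-85473889, plus strand).
Dusp1: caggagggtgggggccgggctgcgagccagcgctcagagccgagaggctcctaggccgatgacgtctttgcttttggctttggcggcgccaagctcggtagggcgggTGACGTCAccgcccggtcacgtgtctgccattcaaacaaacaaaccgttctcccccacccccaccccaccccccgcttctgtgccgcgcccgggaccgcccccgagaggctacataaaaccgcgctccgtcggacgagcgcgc
Btg2: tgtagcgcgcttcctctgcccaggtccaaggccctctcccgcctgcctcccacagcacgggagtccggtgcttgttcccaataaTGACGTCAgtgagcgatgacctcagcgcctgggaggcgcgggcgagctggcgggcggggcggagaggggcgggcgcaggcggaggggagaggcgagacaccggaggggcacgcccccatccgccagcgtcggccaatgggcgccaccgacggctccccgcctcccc
Fos: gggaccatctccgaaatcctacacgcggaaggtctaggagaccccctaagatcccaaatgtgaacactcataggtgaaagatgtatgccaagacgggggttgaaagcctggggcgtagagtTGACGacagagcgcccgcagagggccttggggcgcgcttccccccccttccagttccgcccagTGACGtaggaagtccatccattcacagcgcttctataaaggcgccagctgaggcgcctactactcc
The palindrome began 143 bases before the RefSeq start in Dusp1 and 166 bases before it in Btg2. The shorter motif began 129 and 66 bases before that start in Fos, whose printed window does not hold the palindrome. For Dusp1 and Btg2 the expression table gives a different start, and part of the printed Dusp1 window lies inside the gene as given there. On either strand of windows of 300 bases (250 before and 50 after the start), TGACGTCA occurred in 6 of the 53 promoters (11.3%) that RefSeq lists for 35 of the immediate early genes, which were those of Arl4d, Btg2, Dusp1, Errfi1, Maff and Plk2, against 588 of all 32851 promoters (1.79%). TGACG, which the palindrome contains, occurred in 32 of the 53 (60.4%), against 20.8% of all promoters. These are matches of letters and describe the windows only, and a link to the values under hydralazine was not tested. Errfi1 and Plk2 hold the palindrome and had log2 fold changes of -0.01 and -0.06.

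The feedback inhibitors, which switch signalling off again after a stimulus, had lower values in 15 of 16 genes, with a median log2 fold change of -0.17. Dusp1, which encodes a phosphatase that inactivates MAP kinases (GRCm38 chromosome 17, 26505590 to 26508519), measured 7.98 FPKM at the lowest, 10.9 at the median and 17.9 at the highest in hydralazine libraries, against 12.8, 18.6 and 22.4 FPKM in vehicle libraries. The groups overlapped, with 4 of the 6 hydralazine libraries below every vehicle library, hydralazine replicate 1 level with vehicle replicate 3, the lowest of its group, and hydralazine replicate 5 above vehicle replicate 1. The log2 fold change was -0.67 ± 0.18 (SE) with a 95% interval of -1.05 to -0.29 (limma, unadjusted p = 0.00216). Btg2, an antiproliferative gene of the BTG/TOB family (chromosome 1, 134075170 to 134079120), ranged from 4.45 to 7.08 FPKM under hydralazine (median 6.03) and from 6.24 to 10.8 FPKM under vehicle (median 10.1). Vehicle replicates 1 and 3 were the low ones of their group, and all 6 hydralazine libraries lay under the vehicle mean. Its log2 fold change was -0.60 ± 0.15 (unadjusted p = 0.00167) and -0.70 without replicate 1 of both groups. Tob1, a relative of Btg2, averaged 15.8 ± 1.83 FPKM under hydralazine and 18.0 ± 1.26 FPKM under vehicle (SD). Spry2, an inhibitor of receptor tyrosine kinase signalling, averaged 18.6 ± 1.45 and 21.0 ± 2.33 FPKM in the same groups. Gadd45b, a stress-induced growth arrest gene, averaged 9.29 ± 1.01 FPKM under hydralazine and 10.8 ± 1.26 FPKM under vehicle. These 3 genes had unadjusted p-values between 0.0196 and 0.0348.

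All 21 immediate early transcription factors had lower values under hydralazine (median log2 fold change -0.15, range -0.62 to -0.01), of which 5 had an unadjusted p under 0.05 and none passed. Fos, a subunit of the AP-1 factor, ranged from 7.75 to 18.2 FPKM in hydralazine libraries (median 10.5) and from 7.47 to 27.0 FPKM in vehicle libraries (median 19.8). The lowest of all 12 values was in vehicle replicate 3, so the ranges overlapped throughout, and the log2 fold change was -0.62 ± 0.28 (unadjusted p = 0.0497). Junb, its partner in AP-1 (chromosome 8, 84974484 to 84978718), averaged 24.8 ± 5.63 FPKM under hydralazine, with replicate 5 the highest, and lay between 35.7 and 43.6 FPKM in 5 vehicle libraries, above all hydralazine libraries, with vehicle replicate 3 at 19.6 FPKM. Npas4, a factor that neurons induce in response to calcium entry, averaged 5.52 ± 2.02 FPKM under hydralazine and 8.17 ± 1.80 FPKM under vehicle, with 4 hydralazine libraries below every vehicle library. The orphan nuclear receptor gene Nr4a1 averaged 26.6 ± 6.56 FPKM under hydralazine and 38.0 ± 9.80 FPKM under vehicle. Atf3, a stress-induced factor of low level here, averaged 0.438 ± 0.114 FPKM under hydralazine and 0.678 ± 0.177 FPKM under vehicle. Not every abundant member was as low: Egr1, a zinc finger factor with high basal expression in cortex, averaged 60.2 ± 15.3 FPKM under hydralazine and 72.0 ± 19.4 FPKM under vehicle, a log2 fold change of -0.24 with an interval of -0.72 to 0.23.

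The effectors, which encode synaptic, secreted and signalling proteins, were mixed, with 6 of 11 lower and a median log2 fold change of -0.06. Arc, a regulator of AMPA receptor traffic at synapses (chromosome 15, 74669083 to 74672570), ranged from 30.9 to 103 FPKM in hydralazine libraries (median 40.3) and from 40.1 to 124 FPKM in vehicle libraries (median 95.4). The highest hydralazine library was replicate 5 and the lowest vehicle library replicate 3, and the log2 fold change of -0.81 ± 0.33 (unadjusted p = 0.0308) had an interval of -1.53 to -0.09. Cyr61, a matricellular protein gene induced by serum and stretch, averaged 3.01 ± 1.43 FPKM under hydralazine and 4.49 ± 1.42 FPKM under vehicle (unadjusted p = 0.0542).

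**Figure D2:**
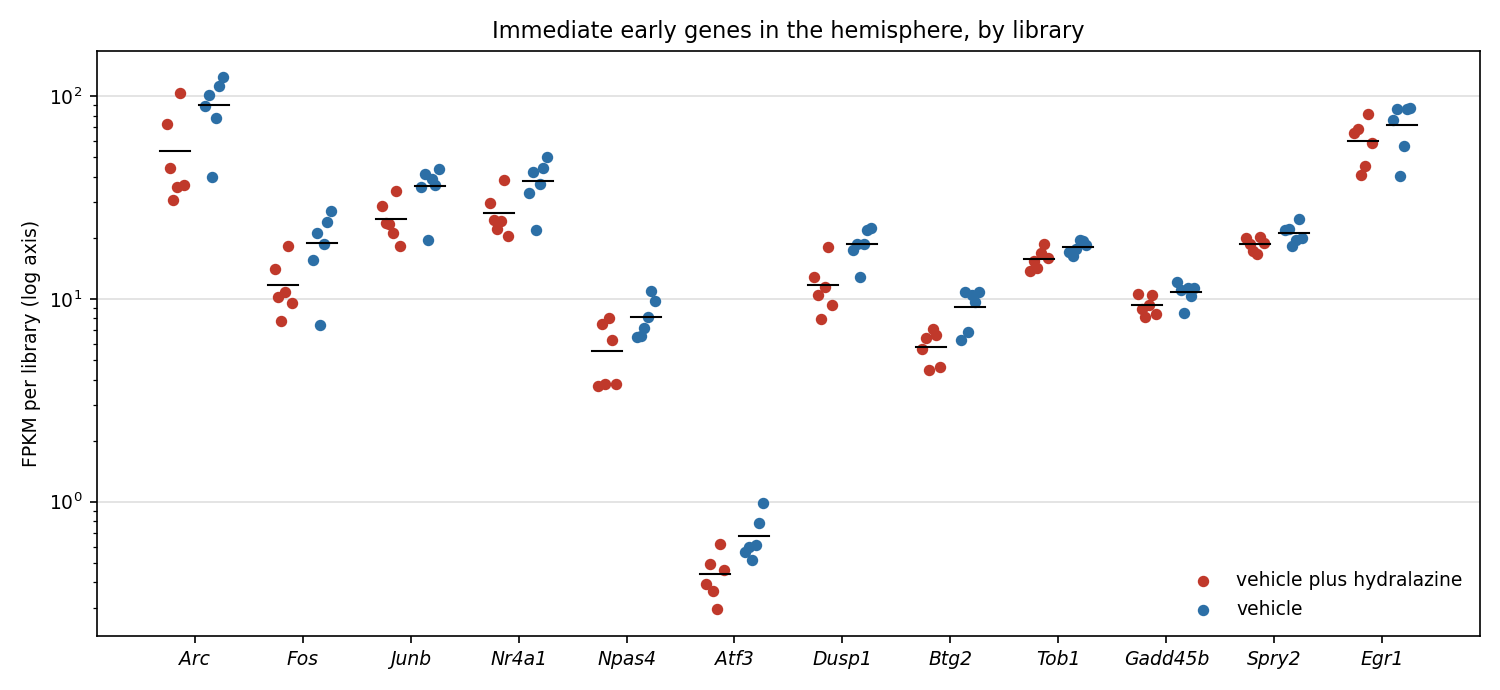
FPKM (log axis) of 12 immediate early genes in each library, with hydralazine at the left (red) and vehicle at the right (blue) of each pair, points in replicate order and a bar at each group's mean. The groups overlap in every gene, and hydralazine replicate 5 and vehicle replicate 3 are the points that lie nearest the other group in Dusp1, Junb and Arc.

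The level of these lists varied between libraries of a group. The mean log2 level over all 48 genes was 3.08, 3.04, 2.84, 2.92, 3.32 and 2.97 in hydralazine replicates 1 to 6, and 3.20, 3.33, 2.84, 3.15, 3.38 and 3.50 in vehicle replicates 1 to 6. Thus 5 of the hydralazine libraries lay below 5 of the vehicle libraries, with hydralazine replicate 5 and vehicle replicate 3 as the exceptions. Heat shock chaperone genes, which respond to protein damage and to temperature, were also highest in hydralazine replicate 5 (mean log2 level 5.71) and in vehicle replicates 5 and 6 (5.57 and 5.58), against 4.89 to 5.33 in the other 9 libraries. Their median log2 fold change between the groups was -0.03, and their part in the values of the immediate early genes was not tested. The count of immediate early genes with an unadjusted p under 0.05 was 21 without vehicle replicate 3 (43.8%, against 2.93% of all genes). It was 19 without hydralazine replicate 5 (39.6%, against 2.82%) and 6 without hydralazine replicate 3 (12.5%, against 1.98%). It was 7 (14.6%) without hydralazine replicate 2 or 6 or vehicle replicate 2, 5 or 6, against 1.94% to 2.3% of all genes. In all 12 such fits between 37 and 43 of the 48 had lower values, and the median log2 fold change was -0.09 without vehicle replicate 6 and -0.21 without vehicle replicate 3. Without replicate 1 of both groups 42 were lower and 11 had a p under 0.05, against 4.79% of all genes.

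**Figure D3:**
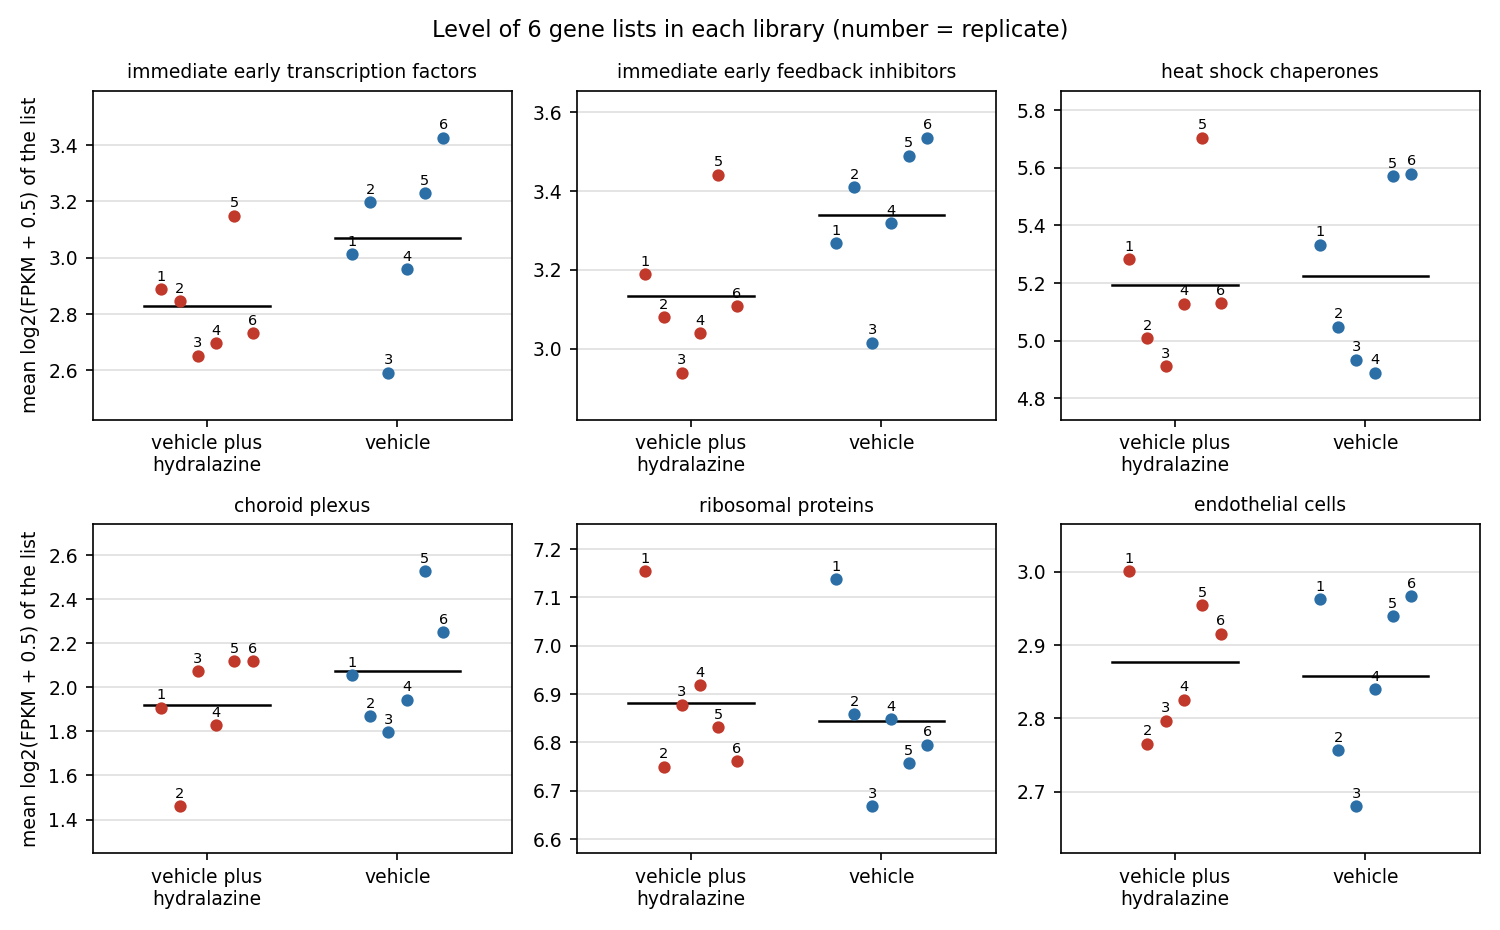
Mean log2(FPKM + 0.5) of 6 gene lists in each library, numbered by replicate, with hydralazine at the left (red), vehicle at the right (blue) and a bar at each group's mean; the axes do not start at 0 and differ between panels. Replicate 1 of both groups is highest for ribosomal protein genes, hydralazine replicate 5 and vehicle replicate 6 are highest in their groups for both immediate early lists, and the groups overlap in every panel.

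Under angiotensin II most immediate early genes did not have lower values with hydralazine: 14 of 47 did, and none passed. In angiotensin II plus hydralazine against angiotensin II alone, 12 libraries that are not used above, 33 of 47 had higher values and the median log2 fold change was 0.10, against 0.002 over all genes. The size of this median rested on single libraries: it was 0.04 without angiotensin II replicate 6, 0.06 without angiotensin II plus hydralazine replicate 4 and 0.16 without angiotensin II plus hydralazine replicate 6. Without each single library 29 to 37 of the 47 genes had higher values. Angiotensin II replicate 6 stood apart, with 23165 genes above 0 and 2.77% of its reads in mitochondrial genes, against 5.84% to 6.66% in angiotensin II replicates 1 to 5. Leaving it out gave 899 genes with an unadjusted p under 0.05, against 443 with it. Before adjustment 4 had a p under 0.05, against 2.8% of all genes. Dusp1 had a log2 fold change of 0.47 ± 0.18 there, Btg2 of 0.50 ± 0.17 and Arc of 0.60 ± 0.24, none of which passed (adjusted p = 0.934 each). The difference between the hydralazine effects with and without angiotensin II was tested as an interaction over the 24 hemisphere libraries. It was above 0 in 41 of 48 genes, with a median of 0.24 and 13 unadjusted p under 0.05, against 2.75% of all genes, and none passed. Without angiotensin II replicate 6 it was above 0 in 38 genes, with a median of 0.17. In that fit 13 had an unadjusted p under 0.05, against 3.33% of all genes. For Dusp1 it was 1.14 ± 0.26 (unadjusted p = 0.000252). The interaction contains the same 12 libraries as the main comparison and is not separate from it. Arc shows the levels behind these values: it averaged 53.8 ± 28.4 FPKM under hydralazine, 90.7 ± 29.6 under vehicle, 39.5 ± 18.8 under angiotensin II plus hydralazine and 24.3 ± 4.99 under angiotensin II (SD, n = 6 each), so vehicle was the highest of the 4 groups. Dusp1 had the same highest group, with 11.7 ± 3.50 FPKM under hydralazine, 18.6 ± 3.47 under vehicle, 11.7 ± 4.25 under angiotensin II plus hydralazine and 8.06 ± 1.26 under angiotensin II.

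In the hippocampus 4 of the 12 hydralazine and vehicle libraries listed fewer than 16000 genes, and with all 12 the median log2 fold change over all genes was -0.12. Without these 4 libraries it was 0.006, and 29 of 46 immediate early genes had higher values (median 0.03). Dusp1 was at -0.57 ± 0.26 and Arc at 0.19 ± 0.30 in that fit, with none passing (adjusted p = 0.998 each). The test of the difference between the regions used all 24 libraries, the 4 with few genes included, and found no gene past the threshold (limma, lowest adjusted p 0.125, 294 unadjusted p under 0.05), and 1 of the 48 immediate early genes had an unadjusted p under 0.05 in it, against 1.77% of all genes. Without the 4 libraries 1 gene was called (Gm24737, adjusted p = 0.0213) and 521 had an unadjusted p under 0.05, and with library weights 2 were called. Of the 48 immediate early genes 26 lay above 0 in the region test with all libraries (median 0.04, against -0.12 over all genes). Without the 4 libraries 40 lay above 0 (median 0.15, against -0.002 over all genes). In that fit 2 of them had an unadjusted p under 0.05, against 3.16% of all genes. Libraries of both regions carry the same group names and numbers, and the labels do not say whether they come from the same mice; the test treats them as separate.

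Among the vasoactive peptides, the log2 fold change farthest from 0 was that of endothelin-1. Edn1, which encodes this potent vasoconstrictor peptide of endothelial cells (chromosome 13, 42301476 to 42307990), measured 3.52, 3.43, 0.825, 1.51, 4.52 and 4.73 FPKM in hydralazine replicates 1 to 6, against 0.887 FPKM at the lowest, 1.13 at the median and 1.75 at the highest in vehicle libraries. The 4 hydralazine libraries other than replicates 3 and 4 lay above all vehicle libraries, and replicate 3 lay below all of them. The log2 fold change was 0.91 ± 0.31, with an interval of 0.24 to 1.59 (unadjusted p = 0.0116). It was 1.17 without hydralazine replicate 3 and between 0.77 and 1.05 without any other single library. Under angiotensin II, in libraries not used in that comparison, Edn1 averaged 3.87 ± 1.43 FPKM with hydralazine and 1.34 ± 0.166 FPKM without it (SD, n = 6 each), and again 1 hydralazine library, replicate 4 at 1.45 FPKM, lay among the others. The log2 fold change there was 1.17 ± 0.22 (unadjusted p = 0.000132, adjusted p = 0.804), and without that library it was 1.38 ± 0.12 and passed (adjusted p = 0.00121). Averaged over both infusions, a contrast added after the data were seen, Edn1 had the smallest p of 16747 genes (log2 fold change 1.04 ± 0.20, unadjusted p = 2.18e-05) but did not pass (adjusted p = 0.365). Without hydralazine replicate 3 the adjusted p was 0.00423, without angiotensin II plus hydralazine replicate 4 it was 0.0196, and without any other single library it was between 0.154 and 0.946. The interaction with angiotensin II was 0.25 ± 0.39. In the 8 hippocampal libraries with many genes the log2 fold change was 0.57 ± 0.26 (unadjusted p = 0.0521).

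**Figure D4:**
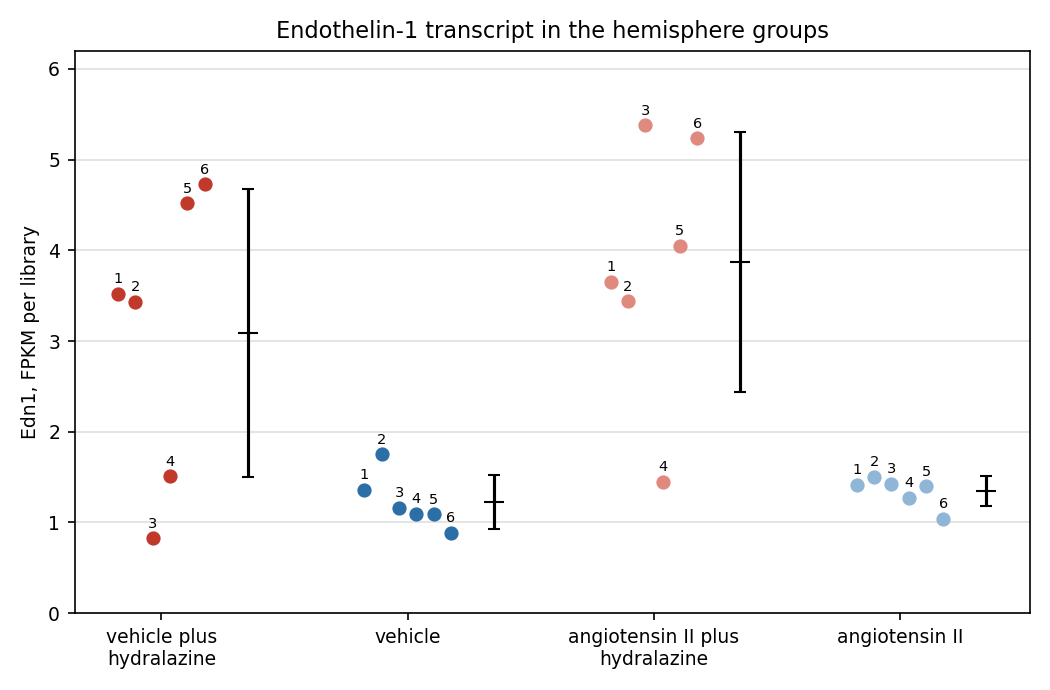
Edn1 in FPKM in each of the 24 hemisphere libraries, numbered by replicate, with each group's mean and SD at its right. With hydralazine 4 of 6 libraries without angiotensin II and 5 of 6 with it lie at 3.43 FPKM or above, and all 12 libraries without hydralazine lie at 1.75 FPKM or below.

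Of the other 17 vasoactive peptide and receptor genes tested, Edn3, an endothelin that acts in neural crest development, averaged 1.71 ± 0.236 FPKM under hydralazine and 1.40 ± 0.223 under vehicle (log2 fold change 0.22, unadjusted p = 0.0372); the list median was 0.02. In the vessel wall lists no gene passed. In bulk tissue fewer cells of a type and less RNA per cell cannot be told apart. Endothelial markers were higher in 14 and lower in 12 of 26 genes (median 0.02). The tight junction gene Cldn5 averaged 44.1 ± 8.36 FPKM under hydralazine and 44.8 ± 8.92 under vehicle, with an interval of -0.30 to 0.26 on the log2 scale, and Podxl, a sialomucin of the luminal surface, 7.80 ± 0.780 and 7.38 ± 0.547 FPKM. Ly6a, a surface antigen of brain endothelium, was at 23.1 ± 2.66 FPKM under hydralazine and 19.7 ± 2.78 under vehicle, while Flt1, a VEGF receptor, was at 4.75 ± 0.193 and 5.31 ± 0.554 FPKM (unadjusted p of 0.0366 and 0.042). Smooth muscle and pericyte markers were higher in 6 and lower in 10 of 16 genes, and Acta2, the smooth muscle actin, ranged from 4.87 to 12.1 FPKM under hydralazine and from 7.04 to 14.4 under vehicle. Among 18 elastic fibre and matrix genes the median was 0.02. Eln, which encodes elastin, averaged 1.88 ± 0.248 FPKM under hydralazine and 1.56 ± 0.214 under vehicle, with 4 hydralazine libraries above all vehicle libraries (log2 fold change 0.21 ± 0.09, unadjusted p = 0.0352). Vascular potassium channels had a median log2 fold change of -0.01 in 13 genes, and Kcnmb4, a beta subunit of the large-conductance channel, had the smallest p of them at 0.152.

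None of the genes tied to the known actions of hydralazine passed. On the log2 scale of the test many of their intervals lay inside 1.5-fold, as did those of 92.6% of all genes. The counts of such intervals are therefore not particular to these lists. Of 9 HIF factors and hydroxylases tested, Egln3, a HIF prolyl hydroxylase that is itself a HIF target, averaged 3.57 ± 0.257 FPKM under hydralazine and 4.13 ± 0.308 under vehicle (log2 fold change -0.18 ± 0.06, unadjusted p = 0.00923). Hif1a, the oxygen-regulated subunit of the factor, ranged from 9.47 to 11.4 FPKM under hydralazine and from 8.95 to 10.7 under vehicle. Of 22 HIF target genes 18 had lower and 4 higher values (median -0.03, range -0.23 to 0.07), with no unadjusted p under 0.05, and for 21 of them the interval lay inside 1.5-fold. Vegfa, the angiogenic growth factor, ranged from 14.9 to 23.3 FPKM under hydralazine and from 17.3 to 26.7 under vehicle (log2 fold change -0.23, interval -0.50 to 0.03). The 13 DNA methylation genes tested had intervals inside 1.5-fold without exception and a median of 0.02. The maintenance methyltransferase Dnmt1 averaged 8.58 ± 0.769 FPKM under hydralazine and 8.82 ± 0.677 under vehicle, and the de novo methyltransferase Dnmt3a 5.74 ± 0.746 and 5.63 ± 0.666 FPKM. The demethylating dioxygenase gene Tet2, with the smallest p of the list at 0.295, had a median of 1.02 FPKM under hydralazine and 0.838 under vehicle. All 22 genes of the NRF2 antioxidant response had intervals inside 1.5-fold, among them the quinone reductase gene Nqo1 (3.38 ± 0.518 FPKM under hydralazine and 3.85 ± 0.385 under vehicle) and the heme oxygenase gene Hmox1 (3.18 ± 0.556 and 3.18 ± 0.452 FPKM). Aldehyde and amine oxidase enzymes (14 genes, median -0.01), calcium release and IP3 signalling (17 genes, median -0.01) and nitric oxide and cGMP signalling (17 genes, median 0.01) each had no unadjusted p under 0.05 and intervals inside 1.5-fold for every gene tested. Nos3, the endothelial nitric oxide synthase, averaged 2.84 ± 0.341 FPKM under hydralazine and 3.05 ± 0.610 under vehicle.

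Systems that answer a fall in pressure were represented by the renin-angiotensin and adrenergic lists. Agt, the astrocyte-made angiotensin precursor, ranged from 30.6 to 58.9 FPKM under hydralazine and from 40.1 to 61.8 under vehicle, with the highest library of each group being replicate 1 (log2 fold change -0.15, interval -0.45 to 0.15). Ace, the converting enzyme, averaged 4.89 ± 0.959 FPKM under hydralazine and 5.18 ± 0.781 under vehicle. The 8 renin-angiotensin genes tested had a median of -0.05. Adrb1, the beta-1 adrenergic receptor gene, averaged 8.55 ± 0.697 FPKM under hydralazine and 9.59 ± 0.609 under vehicle, with 4 hydralazine libraries below all vehicle libraries (log2 fold change -0.16 ± 0.06, unadjusted p = 0.0182). It was the only one of the 12 adrenergic genes tested with an unadjusted p under 0.05. Of 14 glucocorticoid response genes 10 had higher values (median 0.08), with Fkbp5, a chaperone induced by the receptor, at 3.52 ± 0.447 FPKM under hydralazine and 3.21 ± 0.269 under vehicle. This list was highest in hydralazine replicate 5 (mean log2 level 3.38, against 2.85 to 3.03 in the other 11 libraries). Clock genes had lower values in 14 of 16 (median -0.06), and Ciart, a repressor in the clock, averaged 4.98 ± 0.744 FPKM under hydralazine and 6.15 ± 1.05 under vehicle (unadjusted p = 0.0306).

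Immune and glial genes showed no called difference. The astrocyte filament gene Gfap averaged 70.9 ± 7.70 FPKM under hydralazine and 70.6 ± 5.51 under vehicle, with an interval of -0.16 to 0.17 on the log2 scale. The microglial gene Aif1 averaged 2.57 ± 0.335 FPKM under hydralazine and 2.83 ± 0.670 under vehicle, and Ctss, a lysosomal protease of microglia, 37.2 ± 3.03 and 40.7 ± 4.54 FPKM. Microglial markers were lower in 12 of 16 genes (median -0.04), all with intervals inside 1.5-fold. Of 19 interferon response genes 10 were higher, and the ubiquitin-like Isg15 averaged 3.51 ± 0.444 FPKM under hydralazine and 2.71 ± 0.666 under vehicle (log2 fold change 0.34 ± 0.14, unadjusted p = 0.0251). Ifit2, an interferon-induced inhibitor of translation, was at 2.02 ± 0.132 FPKM under hydralazine and 1.73 ± 0.260 under vehicle. Cxcl12, a chemokine of brain endothelium and neurons, was at 9.60 ± 0.785 and 8.48 ± 0.659 FPKM (unadjusted p = 0.0178). All 12 oligodendrocyte markers had lower values under hydralazine, with a median of -0.05. Mbp, the myelin basic protein gene, averaged 492 ± 46.9 FPKM under hydralazine and 509 ± 45.1 under vehicle, and Aspa, the aspartoacylase of these cells, 3.49 ± 0.405 and 3.91 ± 0.255 FPKM.

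No marker of structures that vary with the cut of the tissue passed. All 13 choroid plexus genes tested had lower values under hydralazine (median -0.12), with no unadjusted p under 0.05. Ttr, the transthyretin made there, ranged from 369 to 628 FPKM under hydralazine (median 571) and from 471 to 820 FPKM under vehicle (median 621), with the ranges overlapping. The choroid list was highest in vehicle replicate 5 (mean log2 level 2.53), its median was -0.05 without that library, and Folr1, a folate receptor gene, was at 3.27 FPKM there against 1.43 to 2.06 FPKM in the other vehicle libraries. The pituitary hormone gene Gh ranged from 0 to 12.6 FPKM under hydralazine and from 0.358 to 56.5 FPKM under vehicle. Among thalamus and midbrain markers, Prkcd, a kinase of thalamic relay neurons, averaged 9.33 ± 2.23 FPKM under hydralazine and 11.6 ± 1.48 under vehicle, and Slc6a3, the dopamine transporter, 4.02 ± 0.676 and 3.35 ± 0.300 FPKM (unadjusted p of 0.0387 and 0.0363). The red cell gene Hba-a1 ranged from 18.9 to 46.1 FPKM under hydralazine and from 15.5 to 54.3 under vehicle. Ribosomal protein genes were higher in 32 of 38 (median 0.04) and mitochondrially encoded genes lower in 11 of 13 (median -0.07), each with intervals that included 0 in every gene. Among the mitochondrial genes mt-Atp6, a subunit of ATP synthase, had higher values, and ranged from 91.2 to 372 FPKM under hydralazine and from 81.6 to 156 under vehicle. The part of these markers in other results was not tested.

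**Figure D5:**
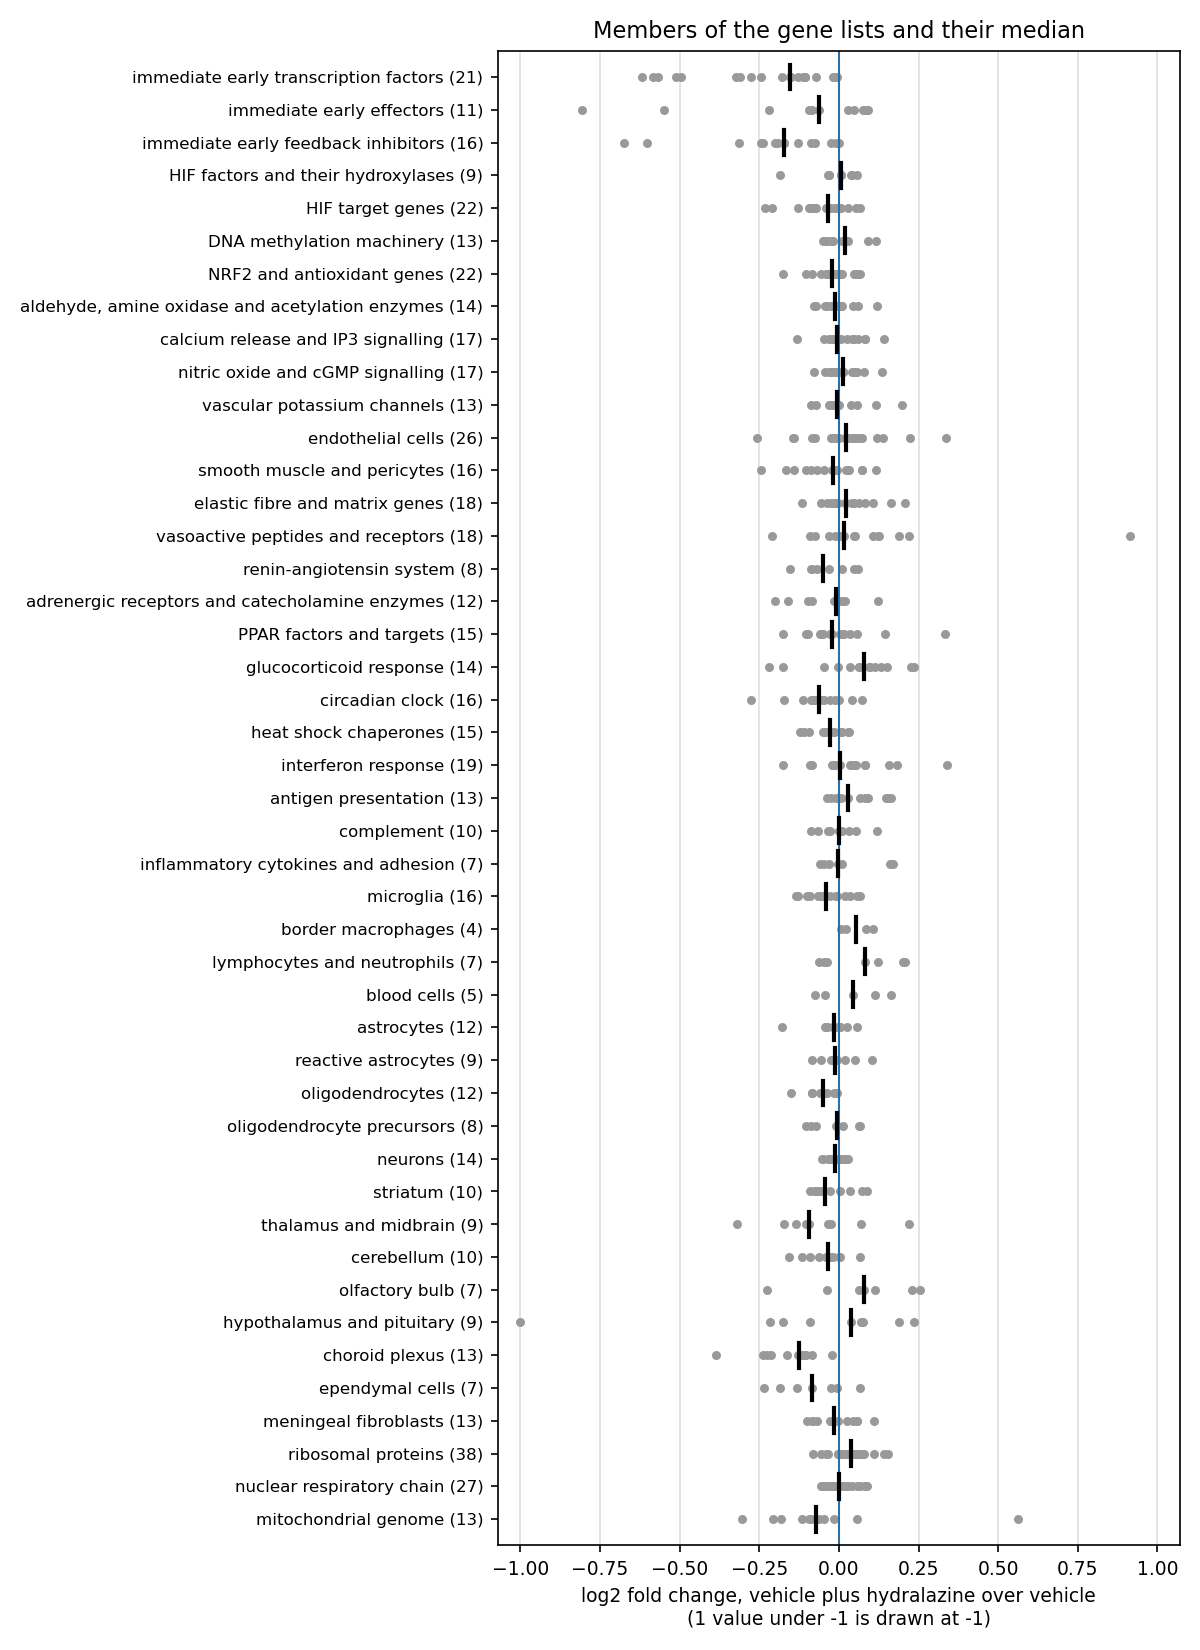
Log2 fold change (hydralazine over vehicle) of each tested member of 45 gene lists (grey points) with the list's median (black bar), the number tested in brackets and the median of all genes as a blue line. The bars of the immediate early transcription factors (-0.15), feedback inhibitors (-0.17) and choroid plexus (-0.12) lie farthest left, and single points far from the rest include Edn1 at 0.91 and Gh, whose -1.28 is drawn at -1.

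The genes that follow are, other than Angptl4 and Kdm6b, those with the smallest p among protein-coding genes of at least 1 FPKM in either group, and none passed. Among those with higher values, Isoc2b, an isochorismatase-domain gene, ranged from 4.87 to 5.57 FPKM under hydralazine and from 3.63 to 4.55 under vehicle, so the groups did not overlap (log2 fold change 0.27 ± 0.06, unadjusted p = 0.000619). Map3k6, a kinase of the stress-activated cascade, averaged 1.17 ± 0.161 FPKM under hydralazine and 0.868 ± 0.107 under vehicle, also without overlap. Nelfb, a subunit of the complex that pauses RNA polymerase II, ranged from 17.2 to 18.6 FPKM under hydralazine and from 15.4 to 17.0 under vehicle. Pparg, the nuclear receptor of fat cell formation, averaged 1.17 ± 0.129 FPKM under hydralazine and 0.835 ± 0.221 under vehicle, with vehicle replicate 4 at 1.24 FPKM inside the hydralazine range (log2 fold change 0.33 ± 0.10, unadjusted p = 0.00669). Its list of 15 PPAR factors and targets had a median of -0.02, and Angptl4, a target that inhibits lipoprotein lipase, averaged 0.900 ± 0.193 FPKM under hydralazine and 0.772 ± 0.213 under vehicle. Tekt2 of ciliary axonemes, the axon guidance receptor gene Robo3, the chromatin remodeller Chd9, the hyaluronidase Hyal1, the endothelial heat shock protein gene Hspa12b, the synuclein-binding protein gene Sncaip and the zinc finger gene Ovol2 had log2 fold changes from 0.21 to 0.28.

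Among those with lower values, Proca1 ranged from 1.73 to 2.00 FPKM under hydralazine and from 2.10 to 2.88 under vehicle, without overlap (log2 fold change -0.32 ± 0.07, unadjusted p = 0.000396). Lactb, a mitochondrial protease-like protein gene, ranged from 6.50 to 7.29 FPKM under hydralazine and from 7.41 to 8.27 under vehicle, and the zinc finger gene Zfp51 from 0.838 to 1.30 and from 1.34 to 1.71 FPKM, both without overlap. Foxf2, a forkhead factor of brain pericytes, averaged 2.30 ± 0.186 FPKM under hydralazine and 2.80 ± 0.218 under vehicle, with 5 hydralazine libraries below all vehicle libraries. Zfp36l1, which binds AU-rich elements of messenger RNAs, averaged 3.25 ± 0.281 and 3.98 ± 0.485 FPKM in these groups, and Otud1, a deubiquitinase gene, 7.50 ± 0.322 and 8.78 ± 0.936 FPKM. Kcnn1, a small-conductance calcium-activated potassium channel gene, averaged 3.89 ± 0.182 FPKM under hydralazine and 4.47 ± 0.269 under vehicle. Kdm6b, a histone demethylase gene, averaged 5.80 ± 0.528 and 6.72 ± 0.612 FPKM in these groups (unadjusted p = 0.0119). Fam122a, an inhibitor of protein phosphatase 2A, Pigv of glycosylphosphatidylinositol anchor synthesis and the protease gene Ctrl had log2 fold changes from -0.30 to -0.24.

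The groups did not overlap in 20 of the 15820 genes (0.126%), with 9 higher (0.0569%) and 11 lower (0.0695%) under hydralazine. A random regrouping of 6 against 6 separates the values of a gene fully with a probability of 0.00216, which is a larger share than the one found. A lack of overlap therefore does not set these genes apart. Fewer libraries separate more easily by construction, so counts from fits with libraries left out cannot be set against the 20. Fits that leave out a single library are alike in group sizes, and found 27 to 64 genes. The count was 64 without hydralazine replicate 1 and 61 without vehicle replicate 1. Leaving out replicate 1 of both groups gave 116. The cause was not tested. Outside the genes above, the 20 included Ube2j1, a ubiquitin-conjugating enzyme of the endoplasmic reticulum, at 28.9 ± 0.847 FPKM under hydralazine and 31.2 ± 1.05 under vehicle, and Plp2, a proteolipid gene, at 3.04 ± 0.366 and 2.61 ± 0.131 FPKM. The smallest p of all genes was that of Gm23084, an rRNA gene named here after its values were seen, with 1.06 to 2.34 FPKM under hydralazine and 0 to 0.873 FPKM under vehicle, listed at 0 in 4 of the 6 vehicle libraries (unadjusted p = 1.75e-05, adjusted p = 0.277). With the replicate block its log2 fold change of 1.72 passed (adjusted p = 0.0138), as it did without vehicle replicate 5 (adjusted p = 0.00955).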

How the data were processed

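The authors deposited FPKM values per gene for 48 libraries of total RNA, and the 12 hemisphere libraries of saline with or without hydralazine were compared. The submitters' processing notes name DESeq 1.10.1, GRCm38 and mm10; for the aligner, the counter and the use of strand the answer is: not given in the sources used here. FPKM are not counts, so no count test was run; read totals were recovered from the FPKM and gene lengths for depth only. Genes that reached 0.5 FPKM in 6 or more of the 12 libraries were tested on log2(FPKM + 0.5) with limma 3.58.1 (R 4.3.3), with a trended, robust prior and Benjamini-Hochberg adjustment over all genes tested. Fold changes on this scale understate those of low genes. The step was tested on simulated data, which used the same spread for every gene and drew each gene separately. These libraries differ from that, since the immediate early genes move together.

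Replicates were compared first: among 30 pairs of libraries of a group, the lowest chi-square per gene was 3.08 (genes of at least 20 reads), so none was counted as a duplicate. Genes named are the 12 protein-coding genes of at least 1 FPKM with the smallest p in each direction, the 2 smallest p of each list, and a fixed set; others are named after their values were seen. The members, the 45 lists (712 genes) and the tests were chosen with earlier results of these data known. Promoter sequences are RefSeq's. Alternatives were other pseudocounts, filters, scalings and priors, library weights, a replicate block, a fit of all 24 hemisphere libraries and leaving out each library.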

Additional observations from a re-analysis of the deposited data

Results flagged for a closer look

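Of 168 sets of 6 libraries examined, 17 values stood far from the other 5 of their group by Dixon's criterion, which chance meets in about 1 in 20 sets. Replicate 1 accounts for several of them. In hydralazine replicate 1, Cldn5 was at 60.2 FPKM (36.3 to 43.8 in the other hydralazine libraries), Mbp at 580 FPKM (450 to 497) and Foxf2 at 2.65 FPKM (2.13 to 2.31). In vehicle replicate 1, Cldn5 was at 62.1 FPKM (36.5 to 44.5 in the other vehicle libraries), Mbp at 598 FPKM (476 to 501), Dnmt1 at 7.50 FPKM (8.92 to 9.45) and Dnmt3a at 4.31 FPKM (5.71 to 6.08). That vehicle library also listed 23693 genes above 0 (24506 to 24938), with 7.22% of its reads in mitochondrial genes (5.89 to 6.21%) and 20.1% in the 100 most abundant genes (18.3 to 18.7%).

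In the other hydralazine libraries, Aspa was at 2.73 FPKM in replicate 5 (3.44 to 3.84) and Sncaip at 1.61 FPKM in replicate 6 (1.31 to 1.41). In the other vehicle libraries, Junb was at 19.6 FPKM in replicate 3 (35.7 to 43.6) and Ifit2 at 2.24 FPKM there (at most 1.73). Folr1 was at 3.27 FPKM in vehicle replicate 5 (1.43 to 2.06), Nelfb at 15.4 FPKM there (16.6 to 17.0), and mt-Co2 at 436 FPKM in vehicle replicate 4 (178 to 271).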

How the results depend on the processing

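No gene passed for hydralazine against vehicle, but 1 did with the replicate block (Gm23084), 1 with replicate 1 of both groups left out (Rpl21-ps10), and 0 to 1 without each single library (Rpl21-ps10 without vehicle replicate 1, Gm23084 without vehicle replicate 5). The 361 genes with an unadjusted p under 0.05 (2.28% of those tested) became 894 (5.65%) with the block and 859 (5.43%) with library weights. They became 903 with no filter and 574 with a filter at 0.1 FPKM. These 2 settings test more genes, and the shares were 2.71% and 2.8%. Without replicate 1 of both groups there were 746 (4.79%), and without each library 304 to 675 (1.94% to 4.3%). Whether the replicate numbers pair the libraries is not known, and they were not taken as a pairing because not every same-numbered pair correlated over 0.1. Same-numbered libraries correlated at 0.07 to 0.51, over 0.1 in 4 of 6, and libraries of different numbers at -0.35 to 0.22. In 3 of 6 the best correlation was with their own number, replicate 1 most (0.51). The p-values of the main fit take no account of a link between same-numbered libraries. Groups without overlap numbered 36 with the filter at 0.1 FPKM and 42 with no filter, settings that test more genes. They numbered 116 with replicate 1 of both groups left out and 27 to 64 without each library, where the groups are smaller.

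In the hippocampus the count of unadjusted p was 163, then 64 with the block, 489 without the libraries with few genes and 76 to 260 without each library. With angiotensin II, 0 to 1 gene passed and 330 to 899 had an unadjusted p under 0.05 without each library. The interaction with angiotensin II had 1083 (3.04%) with no filter and 996 (5.95%) with weights, against 2.75% in its main fit. The region difference had 2 called and 858 unadjusted (5.18%) with weights, and 1 and 521 (3.16%) without the libraries with few genes. It had 741 unadjusted (2.16%) with no filter, against 1.77% in its main fit, and 0 to 1 called and 196 to 548 unadjusted without each library. Over both infusions 0 to 1 was called, with 350 to 619 unadjusted. The cause was not tested.

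Without replicate 1 of both groups the log2 fold change was -0.0214 for Gfap and 0.0162 for Aif1. Without each library it spanned 0 for Cldn5 (-0.1155 to 0.0746), Ace (-0.1382 to 0.0043), Dnmt1 (-0.0815 to 0.004), Dnmt3a (-0.0452 to 0.088), Hmox1 (-0.0462 to 0.0587) and Gfap (-0.0378 to 0.0608), and the difference in protein-coding share ran from -0.0354 to 0.0037 percentage points. At this depth a change under 1.5-fold was often not detectable in genes under 1 FPKM.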
